A study of Mus musculus with 6 samples.

Results

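The SR proteins, the hnRNPs and a few muscle splicing regulators were followed in a calf muscle, the gastrocnemius, of young and old mice. The members were the array probes whose RefSeq gene symbol begins with Srsf and a number or with Hnrnp, together with Mbnl1, Mbnl2, Celf1, Rbfox1, Rbfox2 and Tra2b. This gave 70 of 55681 probes, for 37 genes. There were 22 probes for 12 SR protein genes (Tra2b counted among them), 37 for 20 hnRNP genes and 11 for 5 muscle regulators. The young group comprised 3 muscle samples of male mice aged 13 weeks and the old group 3 of male mice aged 25 months, with 1 single-colour Agilent array (Cy3) per sample. No strain, genotype or treatment was given for either age, and the series title calls the muscle atrophied by aging. Nothing in the labels ties a sample to an animal of its own, so the p-values speak only for the spread among these samples, which can be technical.

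Splicing removes introns from a pre-mRNA and joins the exons, and most muscle genes can be joined in more than one way. SR proteins carry RNA-recognition domains and a tail rich in serine and arginine, and on exons they generally recruit the spliceosome. The hnRNPs coat nascent RNA and often oppose exon inclusion, so the balance between both families sets many exon choices. In muscle, Mbnl1 and Mbnl2 (muscleblind-like), Celf1 and the Rbfox proteins move transcripts between fetal and adult exon patterns, and sequestration of muscleblind proteins together with a rise of Celf1 is known from myotonic dystrophy. Many SR and hnRNP genes also splice a premature stop into their own transcripts, so that different probes of a gene can measure transcripts with different fates.

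No splicing factor probe differed between the ages past the threshold. Levels are given as log2 signal relative to the 75th percentile of the same array, and differences as old minus young on that log2 scale with their standard error (SE). Testing required a signal well above background on 3 or more of the 6 arrays, and 67 of the 70 were, for 35 genes. At a Benjamini-Hochberg adjusted p under 0.05 in limma's moderated test over 28010 probes, 0 of the 67 were called, where 74 of all probes (0.264%) were, 55 of them higher in old muscle (0.196%) and 19 lower (0.0678%). The lowest adjusted p among them was 0.298. In bulk tissue, fewer cells of a type and less RNA per cell cannot be told apart, and this holds for every value that follows.

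The intervals give the precision of each difference among these samples only, and a p that misses the threshold does not show that levels did not differ. The limma 95% interval of a member's difference had a median half-width of 0.49, against 0.55 over all probes. In 53 of the 67 probes the whole interval lay between -1 and 1, that is, within 2-fold in either direction. The same held for 17969 of all 28010 probes, and for 49 of the 67 members without old replicate 1. These intervals are per probe and not adjusted for the number of probes. At an unadjusted p under 0.05 there were 3 member probes higher in old muscle, where 5.71% of all probes were, and 3 lower, where 8.46% were. Old and young values did not overlap in 3 probes with old above young (7.41% of all probes) and in 5 with young above old (14.4% of all probes). The members' shares were 4.48%, 4.48%, 4.48% and 7.46%, in that order. They rest on few probes, some of them counted by both measures, and are not read as a result about the members.

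**Figure D1:**
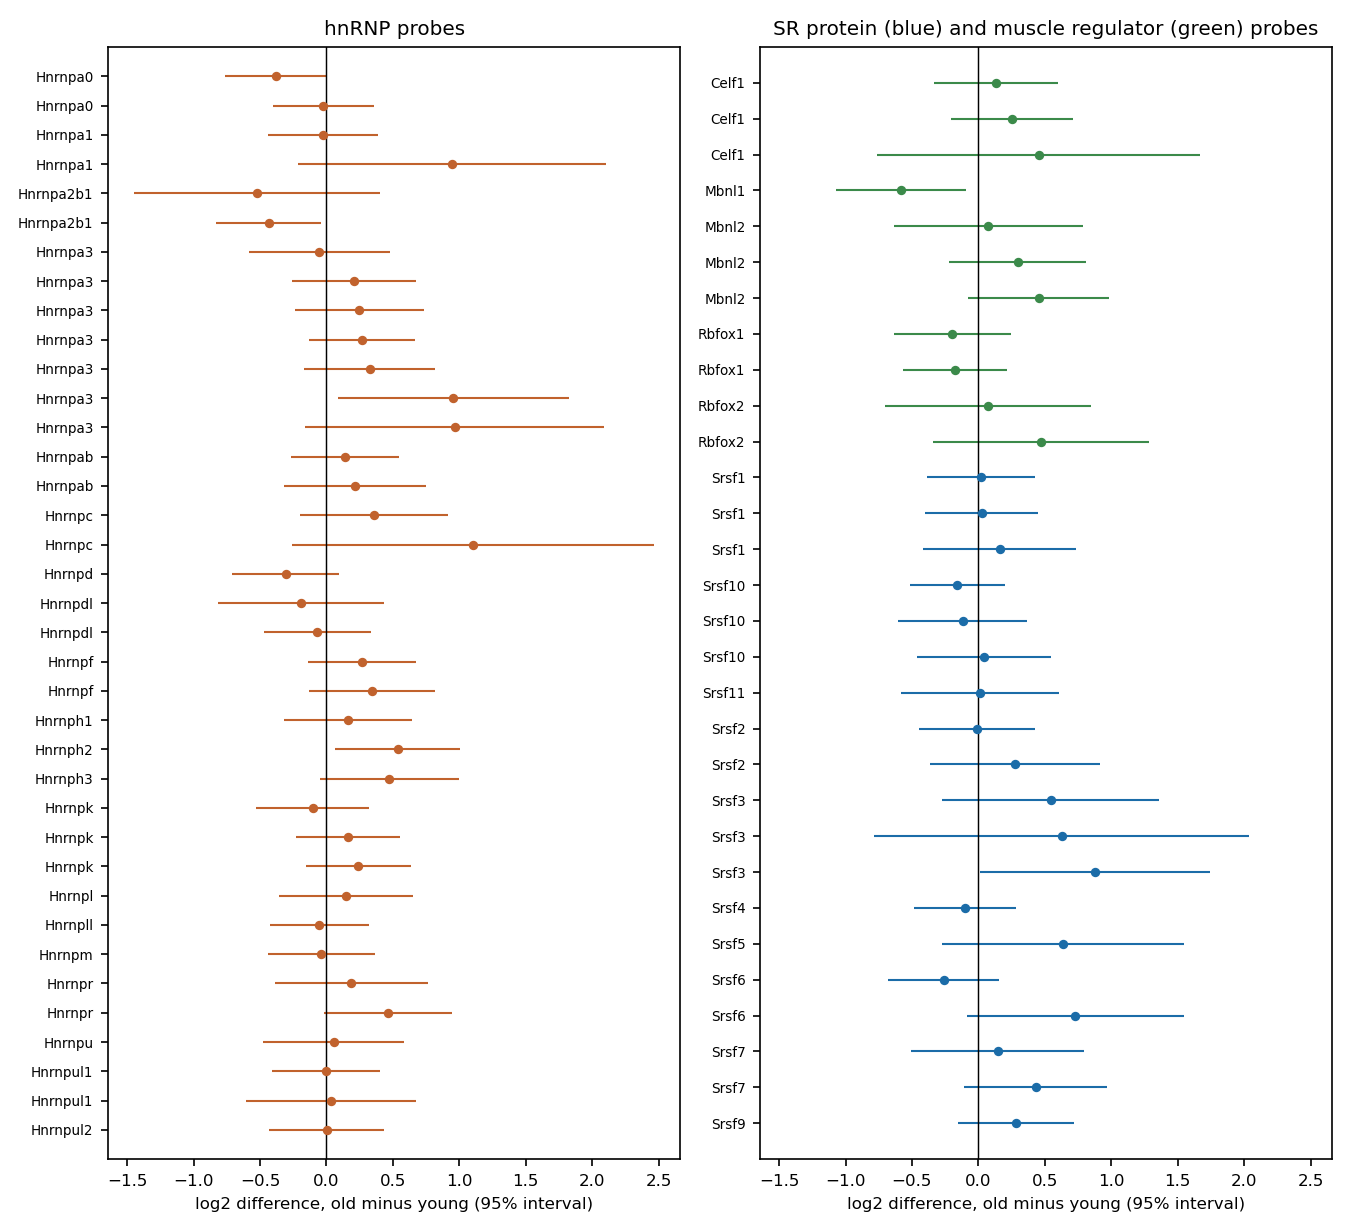
Log2 difference between old and young muscle (horizontal axis) for each of the 67 tested probes, a row per probe, with its limma 95% interval from 3 arrays per age; the left panel holds hnRNP probes and the right panel SR protein probes (blue) and muscle regulator probes (green). The intervals that leave out 0 are those of 6 probes, for Mbnl1, Hnrnph2, Hnrnpa2b1, Hnrnpa3, Hnrnpa0 and Srsf3, and none of the 67 probes passed the adjustment over all probes.

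The probe with the lowest p in each family was that of Srsf3, Hnrnph2 and Mbnl1, so the sequences before their start sites are shown. They are the 250 bases upstream of each start in RefSeq (GRCm38.p6), read 5′ to 3′ along the gene, with motif matches in capitals. Mbnl1 has 2 such starts in the table.
Srsf3, chr17:29032410-29032659 (+ strand): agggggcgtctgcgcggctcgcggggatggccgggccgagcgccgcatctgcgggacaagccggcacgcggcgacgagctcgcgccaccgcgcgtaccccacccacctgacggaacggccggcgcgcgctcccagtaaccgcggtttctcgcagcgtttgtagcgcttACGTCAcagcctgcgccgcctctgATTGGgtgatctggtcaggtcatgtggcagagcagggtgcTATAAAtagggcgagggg
Hnrnph2, chrX:134600929-134601178 (+ strand): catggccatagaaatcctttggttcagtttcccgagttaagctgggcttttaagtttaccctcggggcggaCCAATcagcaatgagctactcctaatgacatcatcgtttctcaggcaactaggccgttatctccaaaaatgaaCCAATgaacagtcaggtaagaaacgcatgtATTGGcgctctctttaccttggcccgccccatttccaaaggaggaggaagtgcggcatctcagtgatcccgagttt
Mbnl1 upstream start, chr3:60472580-60472829 (+ strand): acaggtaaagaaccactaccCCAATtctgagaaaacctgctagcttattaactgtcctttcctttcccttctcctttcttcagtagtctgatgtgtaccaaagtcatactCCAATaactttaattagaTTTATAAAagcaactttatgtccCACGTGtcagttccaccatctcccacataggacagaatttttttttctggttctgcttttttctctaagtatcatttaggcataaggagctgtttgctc
Mbnl1 downstream start, chr3:60500929-60501178 (+ strand): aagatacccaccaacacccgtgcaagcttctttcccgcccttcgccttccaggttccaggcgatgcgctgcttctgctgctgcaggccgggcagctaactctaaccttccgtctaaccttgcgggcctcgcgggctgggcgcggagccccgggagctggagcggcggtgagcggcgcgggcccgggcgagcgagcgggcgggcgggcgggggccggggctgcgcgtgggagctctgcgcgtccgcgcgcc

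The motifs searched on both strands were the CCAAT box (CCAAT), an ETS core (CCGGAAG), a half-site of the cyclic AMP response element (TGACGT), an E-box (CACGTG) and a TATA box (TATAAA). The window of Srsf3 held a TATA box, a CCAAT box and a response element half-site, and that of Hnrnph2 held 3 CCAAT boxes. The upstream start of Mbnl1 had 38% G and C and 1 CpG, with 2 CCAAT boxes, an E-box and overlapping TATA box matches on both strands, and its downstream start had 73.6% and 33 CpGs with no match. Across the 34 member genes in the table (Hnrnpll, Hnrnpul2 and Rbfox2 were not matched), the 48 windows had a median of 66.6% G and C and 23 CpGs, against 52.4% and 6 over all 32851 windows and 55.6% and 10 over those of protein-coding genes. By family the medians were 68% and 25 CpGs (SR), 68% and 23 (hnRNP), and 54.2% and 8 in the 6 muscle regulator windows. Of these 6 windows, 0 held an ETS core or a half-site and 2 held a CCAAT box. CCAAT boxes were in 17 of 27 hnRNP windows (63.0%) and 3 of 15 SR windows (20.0%), against 33.8% of all windows. The ETS core was in 6 of 15 SR windows (40.0%) and 3 of 27 hnRNP windows (11.1%), against 6.91% of all. Response element half-sites were in 18.8% of the 48 member windows and in 6.47% of all, E-boxes in 8.33% and 6.02%, and TATA boxes in 8.33% and 12.4%. In windows of protein-coding genes the shares were 35.4% (CCAAT box), 8.98% (ETS core), 7.37% (half-site), 6.63% (E-box) and 11.6% (TATA box). The ETS core, the half-site and the E-box each hold a CpG, and the shares were not adjusted for the number of CpGs. Windows of 1 gene can overlap, and a match is a description of letters only.

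Among the muscle regulators, Mbnl1 and the probes of Rbfox1 lay lower in old muscle and those of Mbnl2, Celf1 and Rbfox2 higher, and 0 of 11 probes passed. The signs of 1 Mbnl2 and 1 Rbfox2 probe turned with median centring (-0.049 in both), the former also with normexp background correction (-0.080), and those of 2 Celf1 probes and another Mbnl2 probe turned when slide row was a block. Mbnl1, which promotes adult exon choices in muscle, read 5.05, 4.91 and 5.23 on young replicates 1 to 3 and 4.17, 4.75 and 4.50 on old replicates 1 to 3. Every old array lay below every young array, and old replicate 1 was the lowest. The difference was -0.58 ± 0.21 (1.5-fold lower, 95% interval -1.08 to -0.09, limma adjusted p = 0.298). It was -0.43 without old replicate 1 and -0.89 with the slide row as a block, a fit that compares old replicate 1 alone with the young arrays beside it on the slide.

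Mbnl2, the paralogue of Mbnl1, had 3 tested probes. Probe A_51_P494361 read 5.94, 5.47 and 5.58 in young and 5.81, 6.16 and 6.39 in old muscle, a difference of 0.45 ± 0.22 (limma adjusted p = 0.411). Old replicate 1 lay inside the young range there and the other two old arrays above it. Probe A_51_P189269 read 2.09, 1.64 and 2.04 against 1.91, 2.43 and 2.31, a difference of 0.29 ± 0.22 with the same placing of old replicate 1. The last, A_55_P2106265, read 2.17, 1.20 and 1.17 against 1.78, 1.48 and 1.51, with young replicate 1 above all others and a difference of 0.07 ± 0.30. The difference between Mbnl1 and Mbnl2 in their response to age was not tested.

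Celf1, an RNA-binding protein that opposes muscleblind on many exons, also had 3 tested probes. Probe A_51_P204845 spread widely within each age, at 3.07, 2.38 and 4.02 in young and 2.75, 3.97 and 4.10 in old muscle (0.45 ± 0.51). A_55_P1993698 read 1.81, 1.95 and 2.13 against 1.98, 2.21 and 2.46, a difference of 0.25 ± 0.19. The third, A_55_P2282257, read 2.98, 3.12 and 2.63 against 2.88, 3.04 and 3.21, a difference of 0.13 ± 0.20. The ages overlapped on each probe, and the 95% interval of the last ran from -0.33 to 0.60.

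Rbfox1, the Rbfox protein typical of brain and striated muscle, was measured by 2 probes whose differences were alike. A_55_P1953400 read 6.67, 6.72 and 7.02 in young and 6.67, 6.75 and 6.40 in old muscle (-0.20 ± 0.19), and A_55_P1953391 read 5.62, 5.74 and 5.96 against 5.67, 5.59 and 5.55 (-0.17 ± 0.17). Their 95% intervals ran from -0.64 to 0.25 and from -0.57 to 0.22. The ages overlapped on both. Rbfox2, its widely expressed paralogue, read -0.06, -0.15 and 0.96 against 0.79, 0.36 and 1.01 by A_52_P310530 (0.47 ± 0.34) and 1.42, 1.74 and 2.65 against 2.06, 1.82 and 2.15 by A_55_P1982019 (0.07 ± 0.33). On both probes young replicate 3 stood well above the other young arrays.

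Of the 19 tested SR protein probes, 14 had a difference above 0, the range was -0.26 to 0.87 and the median 0.14, and 0 passed. Srsf3, the smallest classical SR protein, which also takes part in mRNA export, had the SR probe with the largest difference. That probe, A_55_P2177614, read 2.49, 1.71 and 1.83 in young and 2.17, 3.12 and 3.36 in old muscle. Old replicates 2 and 3 lay above every young array and old replicate 1 inside the young range. The difference was 0.87 ± 0.36 (1.83-fold higher, 95% interval 0.01 to 1.74, limma adjusted p = 0.351). It was 1.23 without old replicate 1 (adjusted p = 0.124) and 0.16 with the slide row as a block.

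The other Srsf3 probes showed the same placing of the arrays. Their signs turned when slide row was a block, a fit that compares old replicate 1 alone with the young arrays. A_55_P1980125 read 2.61, 1.96 and 2.69 against 2.30, 3.17 and 3.41, a difference of 0.54 ± 0.34 (-0.12 with that block). A_51_P417016 read -1.83, -2.82 and -0.93 against -2.27, -0.75 and -0.68, a difference of 0.63 ± 0.59 (-0.41 with that block). Probes of 1 gene share their RNA and are not replicates of the age difference. RefSeq also lists a pseudogene of Srsf3, and probe sequences were not used here, so a share of signal from it was not tested.

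Srsf6, an SR protein that regulates inclusion of many alternative exons, gave opposite signs on its probes. A_65_P10357 read 1.76, 1.33 and 0.83 in young and 1.46, 2.13 and 2.51 in old muscle (0.73 ± 0.34, limma adjusted p = 0.397), with old replicate 1 again inside the young range. A_52_P543824 read 1.23, 1.43 and 1.11 against 0.84, 1.15 and 0.99 (-0.26 ± 0.18), with the lowest value on old replicate 1. Both probes are assigned to the same RefSeq transcript. The difference between them was 0.99 on the log2 scale and was not tested. When slide row was a block the probes had 0.15 and -0.41.

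The remaining SR genes varied less or within an age. Srsf5, first known as an insulin-induced splicing factor, read 3.65, 3.47 and 2.21 in young and 3.93, 3.59 and 3.72 in old muscle, so that its difference of 0.64 ± 0.38 came with a single low array, young replicate 3. Srsf7, a relative of Srsf3 that also binds export factors, had 0.43 ± 0.23 and 0.14 ± 0.27 on its 2 probes. Srsf9 had 0.28 ± 0.18. Srsf1, the founding member of the family, had differences of 0.02 ± 0.17, 0.02 ± 0.18 and 0.16 ± 0.24 on its 3 tested probes, and Srsf2, which marks nuclear speckles, had -0.01 ± 0.18 and 0.28 ± 0.27.

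Srsf4 (-0.10 ± 0.16) and Srsf11 (0.01 ± 0.25) lay close to 0. Srsf10, a splicing repressor when it loses its phosphates, had differences of -0.16 ± 0.15, -0.12 ± 0.20 and 0.04 ± 0.21, and on the first of these probes, A_55_P1970389, the old arrays (0.39, 0.38 and 0.37) lay below the young ones (0.60, 0.56 and 0.45). Tra2b, an SR-like activator of exons rich in adenine and guanine, passed the background test on 0 of the 6 arrays by its only probe. The same held for the untested probe of Srsf1, assigned to a non-coding transcript. Srsf12 was well above background on 1 array, young replicate 1. These 3 probes were not tested and are given no fold.

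Of the 37 tested hnRNP probes, 24 had a difference above 0, the range was -0.52 to 1.1 and the median 0.16, and 0 passed. Hnrnph2, an X-linked member of the H and F group that binds runs of guanine, read 0.63, 0.58 and 0.45 in young and 0.95, 0.89 and 1.43 in old muscle. Every old array lay above every young array. The difference was 0.53 ± 0.20 (1.45-fold higher, 95% interval 0.06 to 1.01, limma adjusted p = 0.315). It was 0.60 without old replicate 1, 0.37 without old replicate 3 and 0.40 when blocked by slide row.

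The other members of the H and F group also had differences above 0. Hnrnph3 read -2.21, -2.34 and -1.94 against -2.05, -1.45 and -1.58 (0.47 ± 0.22, limma adjusted p = 0.390), with old replicate 1 inside the young range. Hnrnpf had 0.34 ± 0.20 and 0.27 ± 0.17 on its 2 probes, and on the first, A_52_P141161, the old arrays (-0.07, -0.07 and 0.22) lay above the young ones (-0.11, -0.23 and -0.61). Hnrnph1 had 0.16 ± 0.20.

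The A and B group, which binds exonic and intronic silencers, held differences of both signs. Hnrnpa2b1, also known for sorting RNA into cell processes and vesicles, read 4.73, 4.69 and 4.84 in young and 4.15, 4.49 and 4.31 in old muscle by A_55_P2017082. All old arrays lay below all young arrays, and the difference was -0.43 ± 0.17 (1.35-fold lower, limma adjusted p = 0.323). Its other probe, A_55_P1978628, had -0.52 ± 0.39 (-0.10 without old replicate 1) and was not well above background on old replicate 1, where it read -4.17 against -2.73 and -3.07 on the other old arrays. Hnrnpa0, a single-exon gene that binds AU-rich mRNAs, read 3.53, 3.78 and 3.76 against 3.36, 3.26 and 3.30 by A_66_P118233 (-0.38 ± 0.16, 1.30-fold lower, limma adjusted p = 0.351) without overlap, whereas its other probe had -0.02 ± 0.16.

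Hnrnpa1, the archetypal splicing repressor, differed between its probes. A_55_P2066041 read -1.03, -1.68 and -2.98 in young and -0.73, -1.38 and -0.74 in old muscle (0.94 ± 0.49, limma adjusted p = 0.428), and young replicate 3 was the lowest array. A_55_P2029842, assigned to another RefSeq transcript, read 2.97, 3.10 and 3.39 against 3.16, 3.07 and 3.13, a difference of -0.03 ± 0.17 (95% interval -0.44 to 0.38). RefSeq lists Hnrnpa1-like pseudogenes, whose share in either probe was not tested.

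Hnrnpa3, a close relative of Hnrnpa1, was covered by 7 probes, and their differences ran from -0.05 to 0.96. A_55_P2020443 read -0.01, -0.56 and -0.77 against 0.50, -0.14 and 1.17 (0.95 ± 0.37, 95% interval 0.08 to 1.82, limma adjusted p = 0.323), and A_55_P2058628 read 0.94, -0.09 and 0.46 against 1.34, 0.55 and 2.31 (0.96 ± 0.47). Old replicate 3 was the highest array on both, and without it the differences were 0.62 and 0.51. A_55_P2031501 read 5.49, 5.50 and 5.70 against 5.78, 5.71 and 6.0 (0.27 ± 0.17), the only one of the 7 on which the ages did not overlap.

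The other Hnrnpa3 probes stayed within narrower limits. A_55_P1978061 read -2.40, -2.77 and -2.21 against -2.2, -2.28 and -1.93 (0.33 ± 0.21). A_55_P1957344 read 3.02, 2.79 and 3.21 against 2.96, 3.39 and 3.40 (0.25 ± 0.20), and A_55_P1982613 read 4.78, 4.71 and 5.11 against 4.84, 5.12 and 5.25 (0.21 ± 0.20). A_55_P2087225, at 3.27, 3.18 and 3.62 against 2.97, 3.57 and 3.37, was the only probe below 0 (-0.05 ± 0.22). The 2 probes with the largest differences are assigned to 1 RefSeq transcript of the gene and the other 5 to another. When slide row was a block A_55_P1957344 and A_55_P1982613 had -0.044 and -0.026, and A_55_P2087225 turned above 0 with quantile normalization (0.013) and array weights (0.12).

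Among the hnRNPs with other roles, Hnrnpc, which binds uridine tracts and keeps cryptic exons out, had the largest member difference, 1.1 ± 0.57. That probe, A_52_P218537, read 1.68, 1.12 and -0.14 in young and 1.85, 1.23 and 2.89 in old muscle. The ages overlapped, with young replicate 3 the lowest and old replicate 3 the highest array. Without old replicate 3 the difference was 0.65, below the 0.84 of Hnrnpa1 probe A_55_P2066041. The other Hnrnpc probe had 0.36 ± 0.23. Hnrnpr, a relative of the mRNA-binding protein Syncrip, read -3.44, -3.10 and -3.44 against -3.14, -2.82 and -2.63 by A_55_P2213438 (0.47 ± 0.20, limma adjusted p = 0.368), and its other probe had 0.19 ± 0.24. The former had -0.049 with normexp background correction.

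Hnrnpd, known as the mRNA-decay factor Auf1, read 3.54, 3.63 and 3.79 against 3.51, 3.33 and 3.20 (-0.31 ± 0.17) with old below young on each array. Its relative Hnrnpdl, mutated in a limb-girdle muscular dystrophy of humans, had -0.19 ± 0.26 and -0.07 ± 0.17. Hnrnpab had 0.22 ± 0.22 and 0.14 ± 0.17. Hnrnpk, a binder of cytosine-rich RNA, had 0.24 ± 0.17, 0.16 ± 0.16 and -0.10 ± 0.18. Hnrnpl (0.15 ± 0.21), Hnrnpll (-0.05 ± 0.16), Hnrnpm (-0.04 ± 0.17), Hnrnpu (0.05 ± 0.22), Hnrnpul1 (0.04 ± 0.27 and -0.00 ± 0.17) and Hnrnpul2 (0.00 ± 0.18) lay close to 0.

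**Figure D2:**
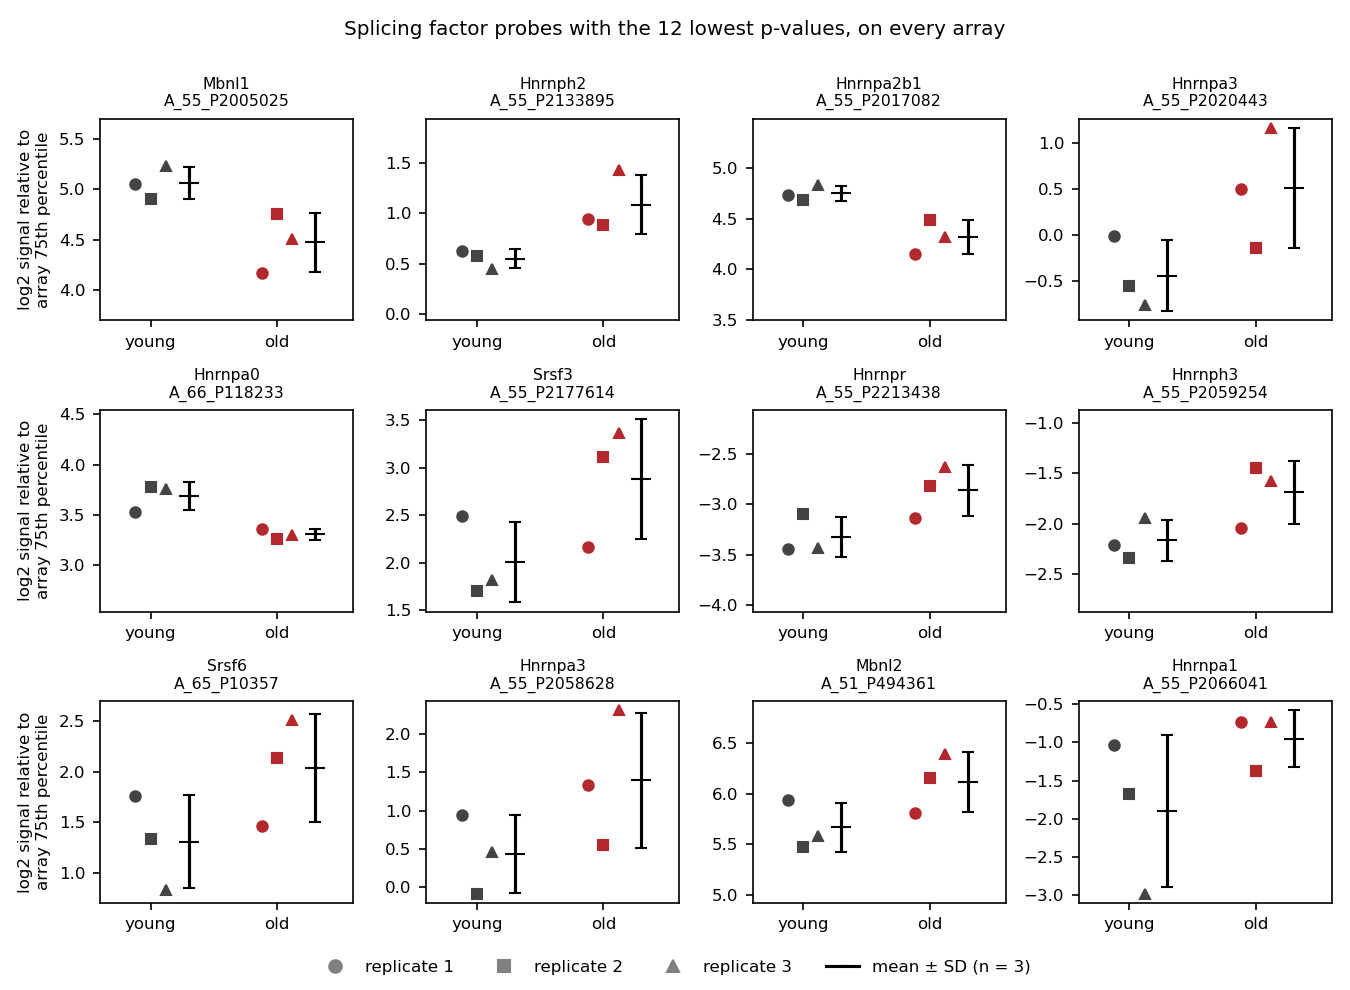
Log2 signal relative to the array's 75th percentile (vertical axis) in young and old muscle for the 12 splicing factor probes with the lowest p-values; each symbol is an array, and the bar is the mean with its SD (n = 3). Old and young values do not overlap for Mbnl1, Hnrnph2, Hnrnpa2b1 and Hnrnpa0, while for Srsf3 and Srsf6 old replicate 1 lies among the young arrays; no probe passed the adjustment.

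Probes of the same gene gave the same sign in most genes but not in all. Of the 35 tested genes, 21 had more than 1 tested probe, and the signs were mixed in 7 of these 21. Over all 35 genes, the tested probes all lay above 0 in 19 and all below 0 in 9. Those counts include 14 genes with 1 tested probe, whose signs cannot be mixed. The spread between the probes of a gene reached 1.02 in Hnrnpa3, 0.99 in Srsf6, 0.97 in Hnrnpa1 and 0.75 in Hnrnpc. The probes may lie on different transcripts or exons, and whether these spreads reflect isoforms was not tested.

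Over all 67 tested probes, 46 (68.7%) had a difference above 0, where 42.4% of all probes did, and the median was 0.15 against -0.07 over all probes. No test is given for these figures, because probes share genes and arrays. The direction was not evenly carried by the old arrays. Old replicate 3 gave the highest of the 6 values in 33 of the 67 probes (49.3%), where it did so in 16.6% of all probes. With each probe centred on its mean over the 6 arrays, the members' medians were 0.02, -0.13 and -0.02 on young replicates 1 to 3 and -0.07, 0.04 and 0.23 on old replicates 1 to 3.

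Old replicate 1 thus lay within the young range, old replicate 2 just above it and old replicate 3 farther above. Among the 19 SR probes the medians were 0.08, -0.09 and -0.09 on the young arrays and -0.21, 0.08 and 0.29 on the old ones, so that old replicate 1 was the lowest array. Among the hnRNP probes the old medians were 0.02, 0.01 and 0.20, and the young ones -0.04, -0.13 and 0.00. The muscle regulators had medians of -0.04, -0.23 and 0.27 in young and -0.09, 0.04 and 0.23 in old muscle, so that young replicate 3 was the highest.

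**Figure D3:**
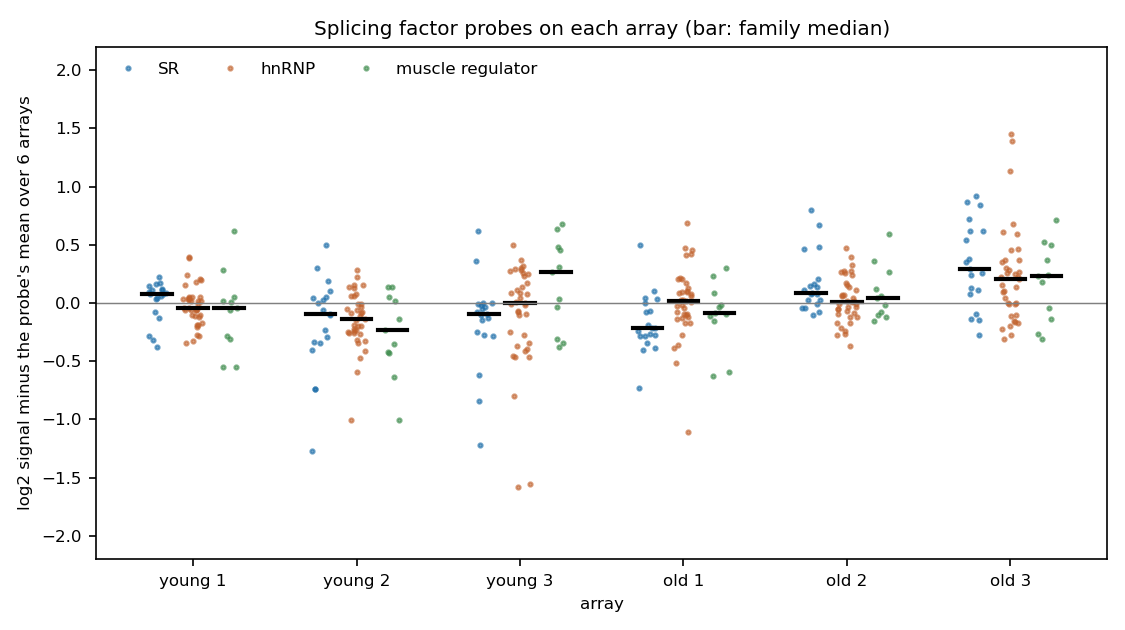
Log2 signal of each tested probe minus its mean over the 6 arrays (vertical axis) on each array (horizontal axis), coloured by family, with the family median as a bar. The bars of old replicate 3 lie at 0.29 (SR), 0.20 (hnRNP) and 0.23 (muscle regulators), and the SR bar of old replicate 1 lies at -0.21.

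The arrays themselves differed. Of the gene spots, 49.9% to 54.8% per array passed the scanner's background test, and 0 were saturated. The negative controls averaged 61.3 on old replicate 1 and 51.9 to 55.1 elsewhere, and its spike-in slope was 0.840 where the other arrays had 0.925 to 0.941. It also shared the first row of the slide with the young arrays, while old replicates 2 and 3 lay in the second. Young replicate 3 had the lowest 75th percentile, 243 where the other arrays had 301 to 366. It gave the highest value in 30.7% of all probes and in 20.9% of the members. Leaving out young replicate 3 turned the sign of 12 of the 67 differences, the most of any array left out (8 without old replicate 1 and 8 without old replicate 3). Without old replicate 1 the members' median was 0.21, with 48 of 67 probes above 0 (44.3% of all probes), 8 at an unadjusted p under 0.05 and higher (6.68% of all probes), 0 lower (10.9%), and 0 called (0.882% of all probes). Those 8 comprised 4 SR, 3 hnRNP and 1 muscle regulator probes, among them the Srsf3 probes A_55_P2177614 and A_55_P1980125 and the Srsf6 probe A_65_P10357.

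With the slide row as a block the median was 0.0016, and 34 of 67 probes (50.7%) lay above 0, where 44.1% of all probes did. The sign of 20 of the 67 differences turned in that fit, whose age difference rests on old replicate 1 alone against the young arrays. At an unadjusted p under 0.05 there were then 0 higher (4.58% of all probes) and 3 lower (6.87%). The SR median was then -0.15 with 7 of 19 probes above 0, and the hnRNP median 0.10. Omitting old replicate 3 gave a median of 0.07 with 42 of 67 probes above 0 (42.8% of all probes) and an SR median of -0.0089, and 0 of 67 probes had an unadjusted p under 0.05. When each array was centred on its median, which lowered the centre of all probes from -0.07 to -0.19, the members' median was 0.025 and 37 of 67 (55.2%) lay above 0, where 30.7% of all probes did. With 1 probe per gene, the brightest, the median over 35 genes was 0.054. The second slide row held only old replicates 2 and 3, so row and age cannot be told apart for these 2 arrays.

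**Figure D4:**
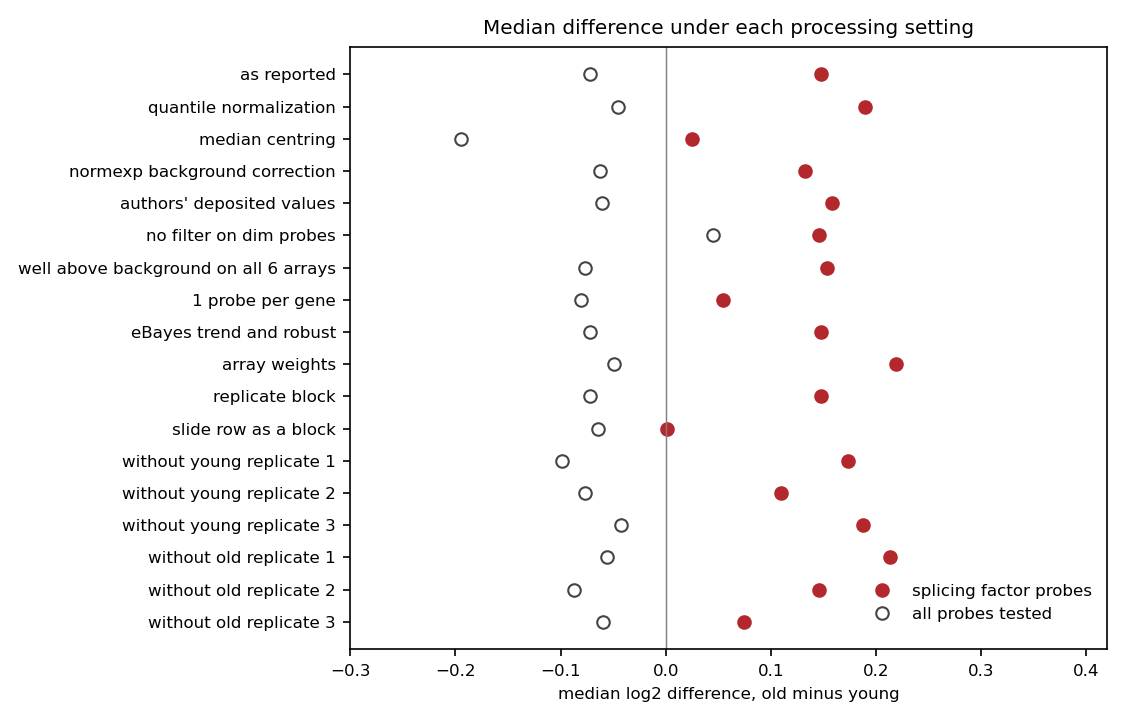
Median log2 difference between old and young muscle (horizontal axis) over the splicing factor probes (filled) and over all probes tested (open) under the reported setting and each of 17 others (rows). The splicing factor median lay between 0.0016, when slide row was a block, and 0.22, with array weights, and above the median of all probes in each.

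The rest of the splicing machinery was taken from 3 lists, chosen by role. All 35 core snRNP and spliceosome genes were tested, by 51 probes, of which 0 passed, 32 lay above 0 and the median was 0.10, and -0.0063 when slide row was a block. Snrpd1, a ring subunit of the spliceosomal Sm proteins, had 2.36 ± 0.64 (limma adjusted p = 0.214) on 1 probe, which read 0.51, 0.34 and 0.09 in young and 1.1, 3.18 and 3.74 in old muscle, but 0.36 ± 0.30 on the other. Snrpn, an imprinted gene for another Sm protein, had -0.63 ± 0.25, with -0.69 ± 0.34 and -0.40 ± 0.24 on its other probes.

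The 15 genes for SR protein kinases, the phosphatase and nuclear import were measured by 20 probes. Of these 7 lay above 0, where 42.4% of all probes did, 0 passed and the median was -0.25, and 0.03 when slide row was a block. Srpk2, a kinase that phosphorylates SR proteins in the cytoplasm, had -0.67 ± 0.30 and Clk2, a nuclear kinase of SR proteins, 0.37 ± 0.18, with limma adjusted p of 0.374 and 0.408.

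Of the 53 other splicing regulators, 49 were tested by 72 probes, of which 28 lay above 0, 0 passed and the median was -0.05, and -0.12 when slide row was a block. At an unadjusted p under 0.05 there were 2 probes higher, where 5.71% of all probes were, and 5 lower, where 8.46% were. The 2 higher ones, of Celf6 and Celf4, were well above background on 0 and 1 young arrays and on 3 old arrays each. Both passed the filter only through their old arrays, so no weight is given to their count. Celf6, a relative of Celf1, did not pass the background test on 3 of 3 young arrays. A cautious estimate put it 2.40-fold higher in old muscle. It was kept through its old arrays alone, so no p is given. For that fold, each young array contributed the larger of Celf6's reading and the dimmest signal that passed the background test. On young replicate 2 Celf6 read -3.63, brighter than the dimmest passing signal, yet did not pass. The fold is therefore not a strict lower limit. Rbm38, an RNA-binding protein of muscle and blood differentiation, read 3.40, 3.33 and 3.18 in young and 2.85, 2.36 and 2.08 in old muscle (-0.87 ± 0.23, limma adjusted p = 0.208).

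Markers of muscle and of other cells were set beside these values. All 8 fast-fibre marker genes were tested, with a summed signal of 5818 to 7129 times the 75th percentile in young and 4236 to 5765 in old muscle, lowest on old replicate 1, and Tnni2 was not measured on old replicate 3. Macrophage markers had 8 of 11 probes above 0, a median of 0.53 and sums of 21.9 to 23.3 in young and 25.9 to 31.6 in old muscle. In the neutrophil list S100a8 and S100a9 passed, and its sum ran from 0.419 to 0.867 in young and from 13.7 to 20.7 in old muscle, while Ly6g and Mpo were not tested. Erythroid markers had a median of -1.22 (sums of 126 to 194 in young and 44.6 to 94.5 in old muscle) and fibro-adipogenic markers -0.74 (327 to 363 and 156 to 294), or -0.20 without old replicate 1. Endothelial, Schwann, satellite cell, lymphocyte and adipocyte markers had medians of -0.17, -0.04, -0.04, -0.04 and -0.36. SR proteins and hnRNPs are expressed in all these cells, and the part of a changed cell makeup in the splicing factor values was not tested.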

How the data were processed

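Total RNA of the gastrocnemius carried a Cy3 label, per the labels' protocols. In the deposited scanner files each spot has an intensity that the scanner software (Agilent Feature Extraction 11.0.1.1 per the file headers, 9.5 per the submitters' processing notes) had corrected for background and spatial trend. The authors' deposited value table is a linear, uncentred intensity: all 62976 values of each array equal, within 1 unit, the processed intensity divided by that array's 75th percentile (all spots) times a constant, with column medians of 6 to 9. It served as an alternative.

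Outlier spots (161 to 212 per array) were left out, log2 processed signals were set relative to the 75th percentile of the non-control spots, and spots of a probe were averaged. The files give accessions, so genes were named through RefSeq (GRCm38.p6): of 55681 probes 28331 matched 1 symbol, 0 several and 27350 none. The array grid names mm9. Each probe was tested with limma (version 3.58.1 in R 4.3.3, two-sided, 3 against 3 arrays, no covariates), with Benjamini-Hochberg adjustment over the 28010 probes kept, and the code was tested on simulated data. An exact permutation test of 3 against 3 cannot give a p below 0.1 and was not used. All arrays shared 1 slide and 1 scan.

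Levels on all arrays are given for the 12 probes of lowest p, all tested probes of the 5 muscle regulators, and genes whose probes differ in sign with 1 at an unadjusted p under 0.05. Other levels were chosen after their values were seen. From each of the 3 other splicing lists the 2 probes of lowest p are named. The members and lists were chosen with earlier results of these data known. Alternatives were other normalizations, normexp (offset 50, on median signals), filters, 1 probe per gene, variance models, blocks, and leaving out each array. Tables were made in Python 3.11.15 (pandas 2.3.3).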

Additional observations from a re-analysis of the deposited data

How the results depend on the processing

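Under all 17 alternatives 0 splicing factor probes passed, and the lowest adjusted p among them ran from 0.124 (without old replicate 1) to 0.599 (without old replicate 3). Their median moved from 0.15 by more than the spread between replicates only with median centring (0.025) and the slide row as a block (0.0016). Leaving out each array gave 0.07 to 0.21. The count of all probes called, 74 (55 higher), was 11 with no filter on dim probes, 43 with a filter on all 6 arrays, 233 with array weights, 35 with the slide row as a block (17 higher), and 2 (without old replicate 3) to 247 (without old replicate 1, 127 higher) when 1 array was left out. Median centring called 60 (38 higher). The replicate block called 9 and no member. Same-numbered arrays deviated with correlations of -0.06, -0.28 and 0.02, and differently numbered ones with -0.21 to 0.36. Deviations from a mean of 3 arrays depend on each other, so these values cannot decide whether the numbers pair the samples. Of the 26 probes named by the rule on lowest p, muscle regulators and mixed signs, 17 kept their sign in every setting, and 20 of all 67 turned with the slide row as a block. Among the 26, signs turned for Hnrnpa3 A_55_P2087225 with quantile normalization (0.013) and array weights (0.12), for Mbnl2 A_55_P2106265 with median centring (-0.049) and normexp (-0.080), for Rbfox2 A_55_P1982019 with median centring (-0.049) and for Hnrnpr A_55_P2213438 with normexp (-0.049). With the slide row as a block they turned for Celf1 (-0.40 and -0.024), Mbnl2 (-0.0098) and Hnrnpa3 (-0.044 and -0.026). Leaving out 1 array moved Celf1 A_55_P2282257 between -0.0055 and 0.24, Mbnl2 A_55_P2106265 between -0.098 and 0.40, Rbfox2 A_55_P1982019 between -0.19 and 0.43, and Hnrnpa3 A_55_P2087225 between -0.19 and 0.11. The cause was not tested. Signal over background limits Tra2b, Srsf12 and 1 probe of Srsf1.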
